A study of Hordeum vulgare with 12 samples.

Results

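miR5200 is a small microRNA family of the grasses, and in these barley seedlings the balance between its 5p and 3p sequences ranged widely. The 3p share ran from 2.41% in a control shoot library to 60% in a nitrogen-excess root library with 5 counts. Of the 3258 plant miRNA sequences in the authors' deposited tables, 5 carry the name miR5200 more often than any other family number, and these 5 are described here. 3 of them had counts and 2 had none in any library, against 697 sequences with a count in the whole list. The family is defined by name, and it was put forward for description with its counts already known, so the values below are a description and the p-values lend no independent support to the choice.

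Small RNA was sequenced from shoots and roots of 2-week-old plants of Hordeum vulgare cultivar Golden Promise. Seedlings stood in perlite under 16 h of light and 8 h of dark at 22 °C, on a medium with 28 mM NH4NO3 (control) or the same medium with 280 mM NH4NO3 (nitrogen excess). The medium of all groups also held other salts, 8 µM CuSO4 among them. Each of the 4 groups (control shoot, nitrogen-excess shoot, control root and nitrogen-excess root) held 3 libraries from biological replicates. Pots held 2 seedlings each, and the number of plants behind a library is not stated in the labels. The library names form 3 series: replicate 1 of every group is in series A, nitrogen-excess root 3 is alone in series C, and the others are in series B.

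MicroRNAs are cut as a short duplex from the stem of a hairpin transcript, and the strands are called 5p and 3p after the hairpin side they come from. One strand is usually kept in an ARGONAUTE protein, where it guides silencing of matching transcripts, and the other is usually degraded. In the grass Brachypodium distachyon, miR5200 cleaves transcripts of FLOWERING LOCUS T genes, which encode the mobile signal that starts flowering, and it is abundant in short days and low in long days. Whether it acts on such transcripts in these barley plants was not examined here. Most values below are of a 5p sequence, whose seed differs from that of the 3p sequences. It need not be the strand that cleaves these transcripts, so its level is not a measure of that activity.

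The 5 sequences are shown because the results turn on which strand, and which variant of it, was counted. They are as the authors' deposited tables list them, 5′ to 3′ in DNA letters, with the seed (bases 2 to 8), which pairs first with a target, in capitals.
ata-miR5200-5p: aAGCCTTAgtgaatatctaca
bdi-miR5200a-5p: gCCTTAGGgaatatctacact
bdi-miR5200b-5p: gCCTTAGAgagtatctacact
ata-miR5200-3p: tGTAGATActccctaaggctt
bdi-miR5200c: tGTAGATActctctaaggctt
The prefixes stand for Aegilops tauschii (ata) and Brachypodium distachyon (bdi). The sequence called ata-miR5200-3p here also carries the names bdi-miR5200a-3p, bdi-miR5200b-3p and, for bread wheat, tae-miR5200. None of the names is a barley name.

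All 5 are 21 nt long. The sequences ata-miR5200-3p and bdi-miR5200c share a seed and differ by 1 base, written C12T with the base of ata-miR5200-3p first and the position counted from 1 at the 5′ end. Because of this match bdi-miR5200c, whose name gives no arm, was counted as 3p. The 5p sequences have 3 different seeds. The sequence ata-miR5200-5p pairs with either 3p sequence end to end over 21 positions, 19 of them Watson-Crick, with mismatches at its positions 10 and 13. The 2 Brachypodium 5p sequences pair with the 3p sequences over 19 positions and are shifted by 2 nt, as in the usual duplex with overhanging 3′ ends. bdi-miR5200b-5p matches bdi-miR5200c at all 19. Without a hairpin sequence at hand, the counted 5p and 3p sequences are not shown to come from the same duplex. Below, strand means the arm assigned here. No other listed sequence matched a member at 17 or more bases on either strand, and none lay inside or around a member, so no listed relative outside the family is likely to share their reads. Between the 2 near-identical 3p sequences the split of reads is uncertain, since the number of mismatches allowed in counting is not known, and their sum is therefore given too.

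Per library, the listed sequences summed to between 245176 and 2246495 counts, which is not the sequencing depth, and miR5200 made up 157 in every 1000000 counts of the pooled sum. The library labelled nitrogen-excess shoot 3 and the library labelled control root 3 did not sit with their tissues. Each library was placed by 175 sequences, without miR5200, on a line from 0 (mean of all further shoot libraries) to 1 (mean of all further root libraries). Nitrogen-excess shoot 3 came out at 1.07 and control root 3 at -0.20. The remaining shoots had positions from -0.34 to 0.01, and the remaining roots from 0.77 to 1.38. Labels are used as given. The fold changes of ata-miR5200-5p, the group means of its level and of the 3p share, and the correlations are also given without these libraries, while the miRNA family lists and the count by naming series are given with them only.

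Over all libraries pooled, the 5p strand made up most of the family, with most of its counts in control shoots 2 and 3. In total ata-miR5200-5p had 1998 counts, bdi-miR5200c 162 and ata-miR5200-3p 18. bdi-miR5200a-5p and bdi-miR5200b-5p had 0 counts, which allows each up to 0.216 in 1000000 counts of the pooled sum (3 counts). Of the 180 counts on the 3p side, 90% were bdi-miR5200c. Such limits, and the intervals on shares below, hold for counting error alone, because PCR copies were not told apart by molecular identifiers.

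In control shoots ata-miR5200-5p had 92, 811 and 715 counts in replicates 1, 2 and 3. In nitrogen-excess shoots it had 62, 64 and 16. The 3 control shoots had similar listed sums, from 1215590 to 1303233 counts, while the 16 counts were in the library with the smallest sum. In control roots the counts were 4, 12 and 154, and in nitrogen-excess roots 2, 33 and 33. The root count of 154 was in the library labelled control root 3.

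Levels that can be set side by side are counts scaled to 1000000 per library, with TMM scaling of all 12 libraries together (CPM). On this scale ata-miR5200-5p was at 60.2, 395 and 333 CPM in control shoots, a mean of 263 ± 178 CPM (SD, n = 3). It was at 15.2, 72.7 and 70.5 CPM in nitrogen-excess shoots (52.8 ± 32.6 CPM). Control shoot 1 lay below 2 of the nitrogen-excess shoots, so the groups overlapped. In control roots it was at 6.20, 28.3 and 132 CPM (55.6 ± 67.4 CPM), and in nitrogen-excess roots at 5.34, 50.7 and 13.8 CPM (23.3 ± 24.1 CPM). The root groups overlapped as well. The order of the group means was control shoot, control root, nitrogen-excess shoot and nitrogen-excess root, and each mean lay within the spread of its neighbour except that of control shoot, whose own libraries span a wider range than the gap to the next group. Without the libraries that stand apart, nitrogen-excess shoot (43.9 CPM, n = 2) was second and control root (17.2 CPM, n = 2) was last. In bulk tissue, fewer cells that make the miRNA and less of it per cell cannot be told apart.

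**Figure D1:**
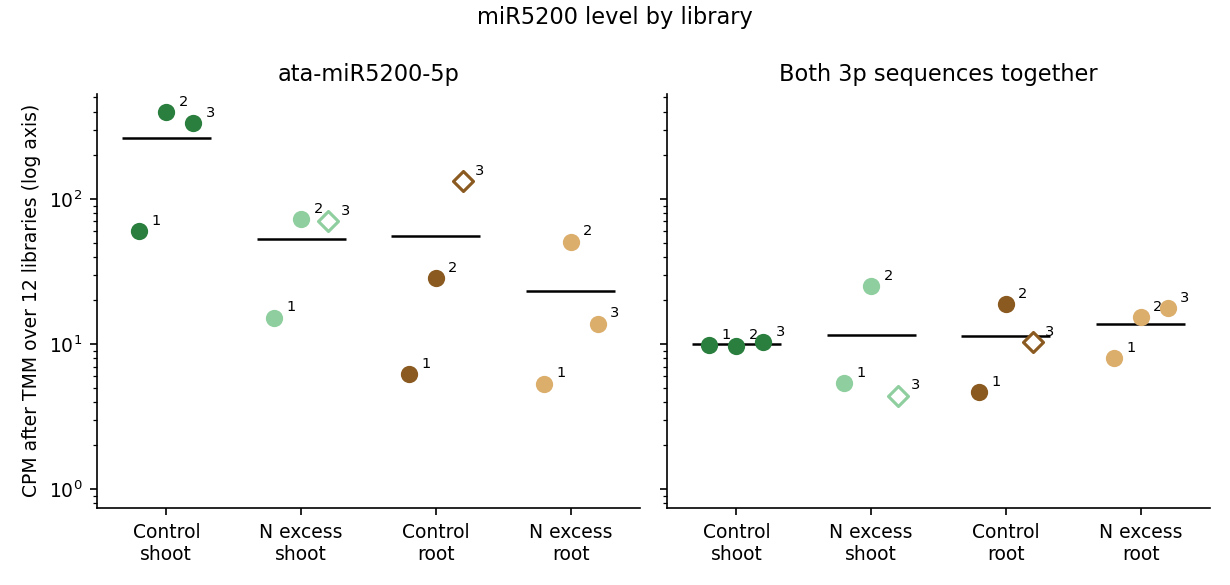
Level of ata-miR5200-5p (left) and of both 3p sequences together (right) in each library, in CPM after TMM over 12 libraries on a log axis. Points are libraries with their replicate number, bars are group means, and open diamonds are the libraries labelled nitrogen-excess shoot 3 and control root 3. The 5p level runs from 5.34 to 395 CPM and the 3p level from 4.40 to 25.0 CPM.

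Within every group the series A library, replicate 1, had the lowest 5p level. This was so for 9 of 177 sequences (5.08%), ata-miR5200-5p among them. The mean of control shoots 2 and 3 was 6.05 times the level of control shoot 1. Fits within series B and with series as a term are given with each comparison. The libraries labelled nitrogen-excess shoot 3 and control root 3, which stand apart, are both in series B. These fits keep them.

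Whether nitrogen excess goes with another miR5200 level was tested over all sequences of a tissue with edgeR's quasi-likelihood test. In shoot, ata-miR5200-5p had a log2 fold change of -2.55 ± 0.99 (SE; 95% interval -4.63 to -0.47), the most negative of the 148 sequences tested. Its unadjusted p was 0.0191 and its adjusted p 0.256, so it was not called. Of the 148 sequences 0% were called in edgeR's test, 15 had an unadjusted p below 0.05, and DESeq2 called 8, none of them miR5200. The groups did not overlap for 13.5% of the sequences, and ata-miR5200-5p was not one of these. The authors' deposited table gives this sequence a log2 fold change of -2.64 with an adjusted p of 0.0717 in shoot.

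The negative sign held in every setting tried in shoot, with values from -3.07 to -2.15 and adjusted p from 0.0972 to 0.755. Leaving out nitrogen-excess shoot 3 gave -2.74 ± 1.11 (adjusted p = 0.53). Series B alone gave -2.32 ± 0.91 (adjusted p = 0.205) and series as a term -2.36 ± 0.68 (adjusted p = 0.162). In series A, with 1 library a group and no test, control shoot 1 stood at 3.96 times the level of nitrogen-excess shoot 1.

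The 3p strand gave no such value in shoot. bdi-miR5200c had 12, 17 and 20 counts in control shoots and 20, 18 and 0 in nitrogen-excess shoots. The library with the 0 is the one labelled nitrogen-excess shoot 3, and a 0 there allows up to 12.2 in 1000000 of its listed counts (3 counts). Its log2 fold change was 0.03 ± 0.92 (95% interval -1.91 to 1.97; adjusted p = 0.976), an interval too wide to show that it stayed level. Its sign depended on the settings: it was -0.17 with equal totals, -0.68 with limma-voom and 0.43 when nitrogen-excess shoot 3 was left out. ata-miR5200-3p had between 1 and 4 counts in each shoot library and was too low to test. Whether 5p and 3p differ in their change was not tested, since comparing the strands is how the family was set out.

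**Figure D2:**
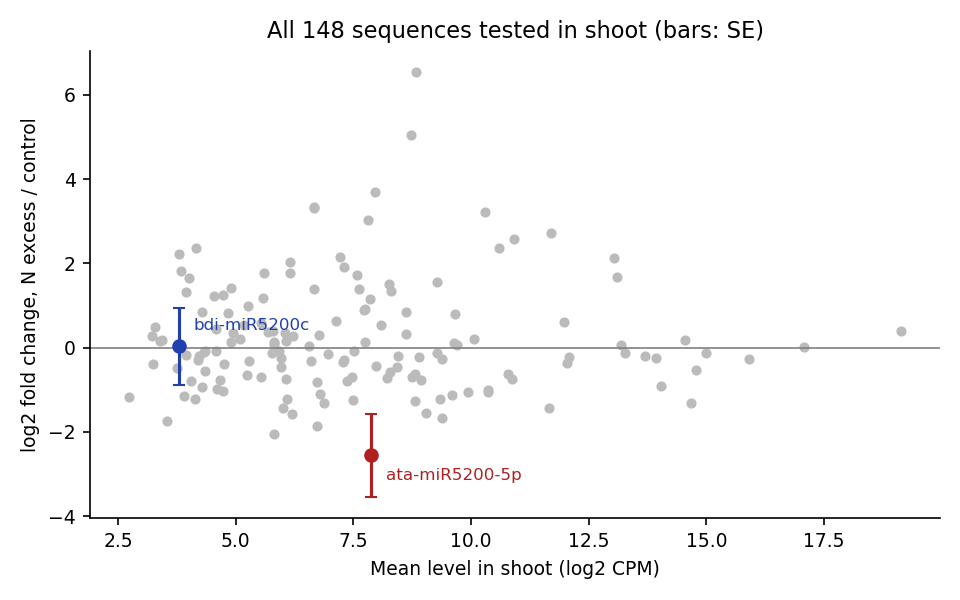
Log2 fold change of nitrogen excess over control in shoot against mean level in log2 CPM for the 148 sequences tested, each a point, with SE bars for the miR5200 sequences. ata-miR5200-5p lies lowest at -2.55 and bdi-miR5200c lies at 0.03.

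In root the 5p strand had no direction that held. ata-miR5200-5p had a log2 fold change of -1.25 ± 1.23 (adjusted p = 0.955 in edgeR's test). Of 146 sequences 0% were called, 1 had an unadjusted p below 0.05, and DESeq2 called 0. The groups did not overlap for 8.22% of them, and did for this one. Without the library labelled control root 3 the sign turned, to 0.43 ± 1.25 (adjusted p = 0.935). Equal totals gave -2.29 and series B alone, with 1 nitrogen-excess library, gave -0.97 ± 2.71 (adjusted p = 0.999). Series as a term gave -0.52 ± 1.52 (adjusted p = 0.996). bdi-miR5200c had 3, 8 and 10 counts in control roots and 3, 9 and 42 in nitrogen-excess roots, and fell below the filter on low counts. The 42 counts came from nitrogen-excess root 3, which had a listed sum of 1590461. Nitrogen-excess root 2, with 9 counts, had a listed sum of 1377990. With counts only divided by the listed sum, bdi-miR5200c stood at 26.4 in 1000000 counts in nitrogen-excess root 3 and at 6.96 in control root 2. After TMM scaling the values were 17.6 and 18.9 CPM, so the order of these libraries depended on the scaling.

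Root and shoot were compared within each condition. In control plants ata-miR5200-5p stood at -2.43 ± 1.19 in root over shoot on the log2 scale (adjusted p = 0.369 in edgeR's test). Of 144 sequences 0% were called, 18 had an unadjusted p below 0.05, and DESeq2 called 16, none of them miR5200. The groups did not overlap for 13.9%, and this sequence was not among them. Without the library labelled control root 3 the value was -4.13 ± 1.26 (adjusted p = 0.0508), still not called, while 40 of all sequences were called in that fit. The 3 control shoots then lay at 60.2 CPM or more and the 2 control roots at 28.3 CPM or less. How many of all sequences part in this way with 2 control roots was not counted, so this gap is not shown to be particular to miR5200. For the 5p strand, series B alone gave -2.17 ± 1.05 (adjusted p = 0.781) and series as a term -2.68 ± 0.74 (adjusted p = 0.364). bdi-miR5200c stood at 0.26 ± 0.82 (adjusted p = 0.974), and at 0.30 ± 0.84 (adjusted p = 0.849) without the library labelled control root 3.

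In nitrogen-excess plants ata-miR5200-5p stood at -1.16 ± 0.99 in root over shoot (adjusted p = 0.647 in edgeR's test). Of 149 sequences 0% were called, 16 had an unadjusted p below 0.05, and DESeq2 called 1, which was not a miR5200 sequence. After TMM scaling the groups did not overlap for 15.4% of the sequences, and for this one they overlapped. That depended on the scaling: with counts only divided by the listed sum, the lowest shoot stood at 27.6 and the highest root at 23.9 in 1000000 counts. The share of all sequences that do not overlap was not counted without TMM scaling, so this gap has no such frame. When the library labelled nitrogen-excess shoot 3 was left out, the value was -1.14 ± 1.02 (adjusted p = 0.551), with 28 of all sequences called. With the replicate number as a block it was -1.28 ± 0.84 (adjusted p = 0.356), with 18 of all sequences called. Series B alone, with 1 root library, gave -0.73 ± 1.51 (adjusted p = 0.994) and series as a term -0.96 ± 0.88 (adjusted p = 0.846).

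The difference between the tissues in the nitrogen-excess effect was 1.08 ± 1.59 for ata-miR5200-5p on the log2 scale (adjusted p = 0.993) and 0.26 ± 1.43 for bdi-miR5200c (adjusted p = 0.993). Of 177 sequences 0% were called in edgeR's test over all 12 libraries, 8 had an unadjusted p below 0.05, and DESeq2 called 0. Without both libraries that stand apart the values were 2.84 ± 1.67 (adjusted p = 0.889) and -0.37 ± 1.44. For the 5p strand, series B alone gave 1.55 ± 1.65 (adjusted p = 0.998) and series as a term 1.58 ± 1.15 (adjusted p = 0.984). The shoot value of the 5p strand is therefore not shown to differ from its root value.

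**Figure D3:**
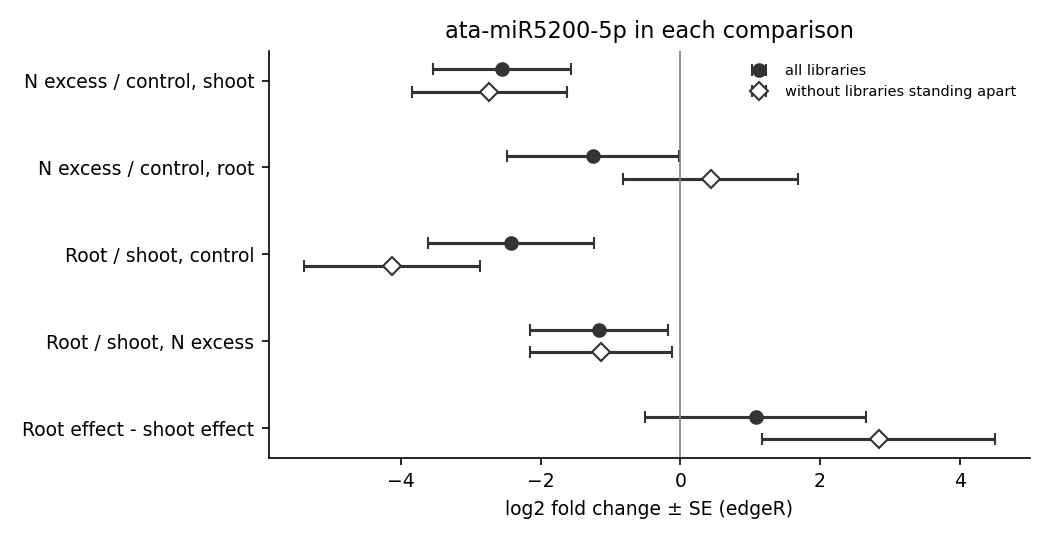
Log2 fold change of ata-miR5200-5p with its SE in the 5 comparisons, with all libraries (filled circles) and without the library or libraries that stand apart (open diamonds). In root the nitrogen-excess value moves from -1.25 to 0.43, and in control plants the root over shoot value moves from -2.43 to -4.13.

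The 2 strands differed in how far they ranged over the libraries. The 5p level spanned a factor of 73.9 between the lowest and the highest library in CPM. The 3p sequences together spanned a factor of 5.67, from 4.40 to 25.0 CPM. With counts only divided by the listed sum, the factors were 272 for 5p and 15.4 for 3p. In control shoots the 3p sequences were at 9.81, 9.74 and 10.3 CPM while the 5p strand ranged from 60.2 to 395 CPM. The 3p counts behind these values are low, between 1 and 42 per library, and the lowest 5p level in CPM rests on 2 counts. For bdi-miR5200c alone no factor can be given, since its lowest level was 0 CPM. The spread of other sequences is not set beside these factors.

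As a share of all miR5200 counts, the 3p side took 14.0% (95% Wilson interval 8.68% to 21.8%) in control shoot 1, 2.41% (1.56% to 3.69%) in control shoot 2 and 2.99% (1.98% to 4.48%) in control shoot 3. The shares in nitrogen-excess shoots were 26.2% (18.0% to 36.5%), 25.6% (17.5% to 35.7%) and 5.88% (1.05% to 27.0%). Replicates 1 and 2 lay above every control shoot, and the library labelled nitrogen-excess shoot 3, with 17 miR5200 counts, lay among the controls. The 3p counts were 15, 20 and 22 in control shoots and 22, 22 and 1 in nitrogen-excess shoots. Each share uses the same 5p counts as the levels above, so it is not a separate line of evidence.

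In control roots the 3p share was 42.9% of 7 counts, 40% of 20 counts and, in the library labelled control root 3, 7.23% of 166 counts. In nitrogen-excess roots it was 60% of 5 counts, 23.3% of 43 counts and 56% of 75 counts. The 5p strand outnumbered the 3p strand in 10 libraries. The 3p strand outnumbered it in nitrogen-excess roots 1 and 3.

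The group means of the 3p share were 6.47% ± 6.54 in control shoot, 19.2% ± 11.6 in nitrogen-excess shoot, 30.0% ± 19.8 in control root and 46.4% ± 20.2 in nitrogen-excess root (SD, n = 3 each). Neighbours in this order differed by less than the larger SD of the pair except for control shoot and nitrogen-excess shoot. Without the libraries that stand apart, nitrogen-excess shoot was at 25.9% and control root at 41.4% (n = 2 each).

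**Figure D4:**
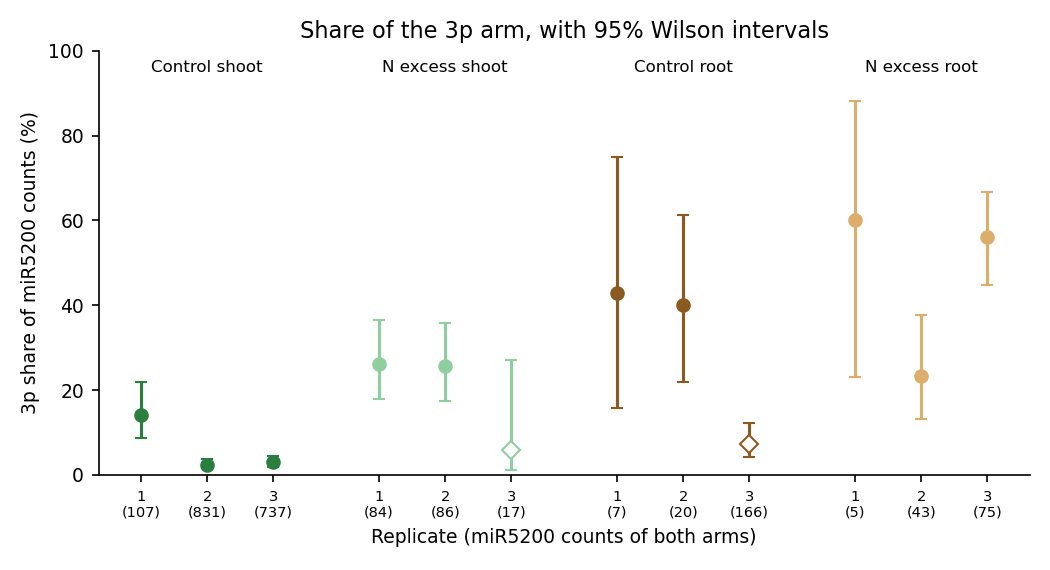
Share of the 3p side among miR5200 counts in each library, in percent, with 95% Wilson intervals that cover counting error only. The number of miR5200 counts is in brackets and open diamonds are the libraries that stand apart. Shares are lowest in control shoots 2 and 3, at 2.41% and 2.99%, and reach 60% in nitrogen-excess root 1 on 5 counts.

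Other hairpins give a frame for the arm balance. Among 196 other miRNA names, of 30 families, listed with both a 5p and a 3p sequence and at least 100 counts in all, 83 had most counts on 5p and 113 on 3p. Many of these names share sequences and are not independent. For the name ata-miR5200 the 3p share was 0.893%, and 65 of the 196 had a lower one. That name leaves out bdi-miR5200c, which held 90% of the 3p counts. With bdi-miR5200c counted as 3p, the share for the family was 8.26%, for which no rank was taken. The list holds sequences of named species, and an arm whose barley sequence differs from them can be undercounted.

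The sequences whose levels ran most like ata-miR5200-5p over the 12 libraries were, by Pearson correlation of log2 CPM among 175 sequences, ata-miR166b-5p (r = 0.81), aly-miR159b-3p (0.80), hvu-miR5051 (0.76), bdi-miR5056 (0.76) and ata-miR156c-3p (0.74). Over the 10 libraries without those that stand apart the values were 0.83, 0.86, 0.81, 0.83 and 0.71. These libraries share tissue, naming series and scaling, so the values are descriptive. bdi-miR5056 had 48 counts in all. In shoot none of the 5 was called for nitrogen excess. Their log2 fold changes were -1.25 for ata-miR166b-5p, -0.69 for aly-miR159b-3p, -0.23 for hvu-miR5051 and -1.17 for bdi-miR5056, and that of ata-miR156c-3p is covered with its family below.

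**Figure D5:**
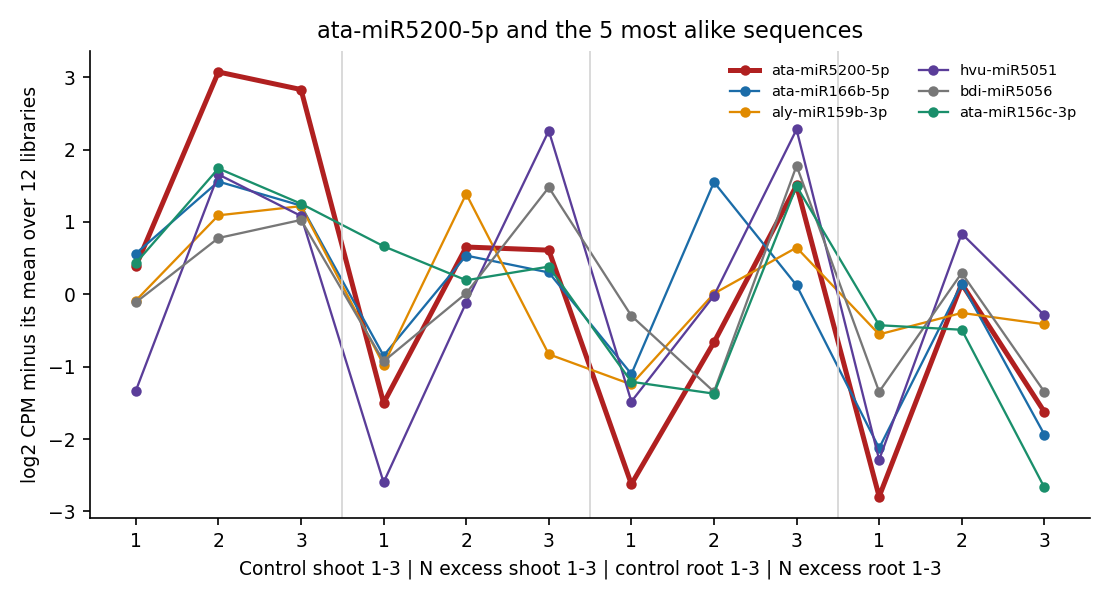
Log2 CPM of ata-miR5200-5p (thick line) and the 5 sequences with the highest correlation, each minus its own mean, over the 12 libraries in group order. All 6 sequences lie above their means in control shoots 2 and 3 and in the library labelled control root 3.

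Other families that act on flowering time or the change of growth phase were set beside miR5200. They are miR156 and miR157, which repress the SPL factors that end the juvenile phase, miR172, which represses AP2-like floral repressors, and miR159, miR319, miR169, miR390 and miR399. Of 35 of their sequences tested in shoot, 0 were called in either direction, with 16 positive and 19 negative and a median log2 fold change of -0.19 against -0.07 over all 148. Of 31 tested in root, 0 were called, with a median of -0.25 against -0.27 over all 146. The most abundant miR156 sequence, ata-miR156c-3p, averaged 1759 ± 850 CPM (SD, n = 3, scaled within shoot) under control and 878 ± 135 CPM under nitrogen excess, with a 95% interval of the log2 fold change from -2.75 to 0.74 (adjusted p = 0.658 in edgeR's test). The most abundant miR172 sequence, ata-miR172b-5p, stood at -0.75 ± 0.78 (adjusted p = 0.755). In root the values were -1.18 ± 1.07 and -1.22 ± 1.03, with an adjusted p of 0.955 for each. Abundance picked the sequence within each family, but neither family was picked by abundance. The most abundant sequences of the other families tested went both ways, and none was called. Their log2 fold changes in shoot were 1.40 for miR399, 0.91 for miR169, -0.27 for miR159, -0.25 for miR319 and -1.55 for miR390. The root values, in the same order, were 2.00, 1.75, 0.07, -0.16 and 0.08. Neither ata-miR156c-3p nor ata-miR172b-5p need be the strand that represses the targets named above. For the name ata-miR156c, 5p had 0 counts and 3p 13417 over all libraries. For ata-miR172b, 5p had 640 and 3p 538.

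Sequences that carry a Brachypodium name and otherwise grass names only, miR5200 left out, were the second list. Of 38 tested in shoot 0 were called, with 21 positive and 17 negative and a median of 0.10. Of 39 tested in root 0 were called, with 14 positive and 25 negative and a median of -0.40. In root over shoot, 38 were tested in control plants and 38 in nitrogen-excess plants, and 0 were called in either, with medians of 0.04 and 0.37 against 0.02 and 0.18 over all sequences.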

How the data were processed

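Per the labels' protocols, TruSeq small RNA libraries were sequenced. The authors deposited whole-number counts per sequence and library. Trimming and the counting tool, with its mismatch setting and miRNA list version: not given in the sources used here. The deposited signal columns equal the counts divided by 1 factor per library, and DESeq2 is named without a version in the submitters' processing notes. The deposited log2 fold changes and p-values, per the file headers, compare nitrogen excess with control within a tissue and are quoted only where named.

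Counts were fitted with edgeR 4.0.16 in R 4.3.3 (TMM, filterByExpr with minimum count 10 and minimum total 15, quasi-likelihood test, Benjamini-Hochberg adjustment over all sequences tested, threshold 0.05), each comparison on its own libraries. Each SE is the log2 fold change over the square root of its F statistic. ata-miR5200-5p was tested in every comparison, and bdi-miR5200c in those where it passed the filter. Scripts were tested on simulated data with less spread between libraries than these fits found. That test does not show how well changes are found in these data. Shares carry Wilson intervals (95%) from scipy 1.17.1. The members and lists were chosen with earlier results of these data known. All miR5200 sequences are named, and the 5 alike sequences are those with the highest correlation (log2 CPM, prior count 2). For the flowering and growth phase families, values are of the most abundant tested sequence of each family. More detail is given for miR156 and miR172, which were not chosen by abundance. Alternatives were DESeq2 1.42.0, limma-voom (limma 3.58.1), DESeq2 size factors, equal totals, no filter or at least 20 counts in at least 3 libraries, family sums, naming series, the replicate block and leaving out each library. Same-numbered libraries deviated together, with every correlation over 0.1, only between shoot and root of nitrogen-excess plants (r = 0.49, 0.20 and 0.35). This is a hint from the data, and the labels state no such pairing. Nitrogen-excess shoot 3, which stands apart, is one of these libraries. The labels do place replicate 1 of every group in series A, and its correlations elsewhere were 0.50 in shoot, 0.14 in root and 0.50 in control plants.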

Additional observations from a re-analysis of the deposited data

How the results depend on the processing

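No miR5200 sequence was called in any of the 5 comparisons under any alternative run. The direction of ata-miR5200-5p held in every alternative except in root, where leaving out single libraries gave -2.42 to 0.43. Leaving out single libraries gave -3.07 to -2.15 in shoot, -4.13 to -1.61 for root over shoot in control plants, -1.94 to -0.75 in nitrogen-excess plants, and 0.25 to 2.98 for the difference between tissues. For bdi-miR5200c the sign turned in shoot with equal totals (-0.17), limma-voom (-0.68) and the replicate block (-0.35), with -1.40 to 0.43 when single libraries were left out. In control plants it turned with equal totals (-0.75; single libraries left out, -0.39 to 0.68). For the difference between tissues it turned with series B alone (-0.75) and without both libraries that stand apart (-0.37; single libraries left out, -0.29 to 1.70). The cause was not tested, but equal totals moved the median of all sequences in control plants from 0.02 to -0.75. The same scaling moved it from -0.27 to 0.09 in root and from 0.18 to -0.47 for root over shoot in nitrogen-excess plants. The stricter filter removed bdi-miR5200c in shoot and in control plants.

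Counts over all sequences, 0 in each comparison, were 8 in shoot with no filter and 8 with DESeq2, 1 with limma-voom, 3 with the replicate block and 4 without nitrogen-excess shoot 1. In control plants they were 20 with no filter, 16 with DESeq2 and 40 without the library labelled control root 3. In nitrogen-excess plants they were 1 with DESeq2, 18 with the replicate block and 28 without the library labelled nitrogen-excess shoot 3. In shoot, root and control plants at least 1 of the 3 same-numbered pairs had a correlation of deviations under 0.1, so the numbers are not shown to pair those libraries; with the replicate block ata-miR5200-5p stood at -2.37 in shoot, -0.88 in root, -2.87 in control plants and 1.15 for the difference between tissues. The 3p sequences had between 1 and 42 counts per library together, which limits their precision.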
